A study of Mus musculus with 2 samples.

Results

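Of the 31253 genes listed in each library, the 9 described here were chosen by name as complement genes of periosteal stromal cells: C3, C4b, C1s1, C1ra, C2, Serping1, Cfb, Cfd and Masp1. Their unique molecular identifiers (UMIs, each tagging 1 captured mRNA molecule) were summed over all cells of a type and divided by that type's total, separately in each library. Levels are therefore CPM, the UMIs of a gene per 1000000 UMIs of its class. The cell types were set by marker genes that include none of the 9. All 9 genes had at least 1 UMI in each library.

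Complement is a cascade of serum proteins that tags surfaces for removal and calls in immune cells. In the classical pathway the proteases C1r and C1s, bound to the recognition protein C1q, cleave C4 and C2. In the lectin pathway MASP proteases take that part. The fragments of C4 and C2 form an enzyme that cleaves C3, the point where all pathways meet, and in the alternative pathway factor B and factor D build such an enzyme from C3 itself. C1 inhibitor, encoded by Serping1, blocks C1r, C1s and the MASPs. The liver makes most of the circulating proteins, and fibroblasts and macrophages are known to make several of them locally.

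The cells were Ai9+ cells sorted from the periosteum, the sheath around bone, of femurs and tibias of 8-week-old mice. The control library came from Prx1 Cre; Ai9/+ mice and the Piezo1 fl/fl library from Prx1 Cre; Ai9/+ mice that also carried Piezo1 fl/fl, a conditional allele of a mechanically gated ion channel. Both thus share the Prx1 (Prrx1) driven Cre, which is active in limb mesenchyme, and the Ai9 reporter. Each genotype is 1 library, and how many mice it pools is not given in the sources used here. Without replicates no test was made, and every interval below is a 95% interval for counting error only. A difference between the libraries cannot be told apart from a difference between preparations. Clusters were named from markers as Pi16 fibroblast-like, Gdf10 fibroblast-like, SSPC-1-like and SSPC-2-like (skeletal stem and progenitor cells), tendon-like and so on.

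After filters 4418 control and 5084 Piezo1 fl/fl cells were kept. In the control library, 852 cells were Pi16 fibroblast-like, 752 Gdf10 fibroblast-like, 806 SSPC-1-like and 741 SSPC-2-like. Of the Piezo1 fl/fl cells 968 were Pi16 fibroblast-like, 1108 Gdf10 fibroblast-like and 392 SSPC-2-like. A further 1042 Piezo1 fl/fl cells, led by Lgr5, had 7 of 8 SSPC-1 and 6 of 7 tendon markers and were left unnamed, so that SSPC-2-like cells alone are compared between genotypes. The control SSPC-1-like cluster held 8 of 8 SSPC-1 markers and 6 of 7 tendon markers. Despite the sort, 396 and 434 cells were macrophage-like and 172 and 142 endothelial-like. Piezo1 itself had 132 UMIs (5.18 CPM) among control and 69 UMIs (2.41 CPM) among Piezo1 fl/fl cells, a ratio of 0.466 (0.343 to 0.628). The 2 libraries shared 50 barcodes.

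In the GRCm38 assembly with the GENCODE vM21 annotation, 4 of the 9 genes lie on chromosome 17. C3 spans chr17:57203970-57228136 on the minus strand. C4b (chr17:34728380-34743882), Cfb (chr17:34856374-34862518) and C2 (chr17:34862604-34898265), all on the minus strand, lie close to each other in the region of the major histocompatibility complex, with 85 bases between Cfb and C2. C1ra (chr6:124512405-124523443, plus strand) and C1s1 (chr6:124530345-124542359, minus strand) are neighbours with 6901 bases between their 3′ ends. Serping1 is at chr2:84765387-84775444 (minus), Masp1 at chr16:23449417-23520815 (minus) and Cfd at chr10:79890853-79892655 (plus). Gm20547 (chr17:34856412-34882042) overlaps both Cfb and C2 on their strand and had 0 UMIs in both libraries. How reads of the shared stretch were counted is not given in the sources used here, so the levels of C2 and Cfb are uncertain. C4a, a near-identical copy of C4b, was not analysed here, and reads of the pair may not be separable. The copies C1rb (12 UMIs among control and 18 among Piezo1 fl/fl cells) and C1s2 (15 and 16 UMIs) were small beside the counts of C1ra and C1s1.

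The RefSeq promoter table (GRCm38.p6) holds 4 of the 9 genes, as windows from 250 bases before to 50 after a gene start, written along the gene's strand. The windows of C3, C1ra and C1s1 are printed because C3 followed cell type far more sharply than C1ra and C1s1, as described in the next paragraphs. Capitals mark matches, on either strand, to the letters TTGCNNAA (a core of C/EBP sites, found in 10.8% of 32851 promoter windows of this length), TTCNNNGAA (STAT, 8.30%) and TATAAA (13.6%). The letters GAAANNGAA (IRF, 8.56%), TGANTCA (AP-1, 7.81%) and the kB motif (8.46%) were also searched on both strands and had no match in these windows. No 2 of the matches overlap.
C3, chr17:57228087-57228386, minus strand: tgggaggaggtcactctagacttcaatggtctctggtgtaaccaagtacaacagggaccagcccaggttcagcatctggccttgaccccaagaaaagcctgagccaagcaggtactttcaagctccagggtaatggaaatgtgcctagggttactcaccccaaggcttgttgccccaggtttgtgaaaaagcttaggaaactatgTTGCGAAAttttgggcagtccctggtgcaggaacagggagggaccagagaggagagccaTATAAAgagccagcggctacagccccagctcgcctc
C1ra, chr6:124512371-124512670, plus strand: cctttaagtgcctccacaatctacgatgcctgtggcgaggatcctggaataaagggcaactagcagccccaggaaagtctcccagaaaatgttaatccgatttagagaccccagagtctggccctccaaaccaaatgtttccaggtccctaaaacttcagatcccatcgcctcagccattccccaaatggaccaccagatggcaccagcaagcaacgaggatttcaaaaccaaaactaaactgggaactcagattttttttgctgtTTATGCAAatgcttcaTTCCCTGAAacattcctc
C1s1, second of 2 starts in the table, chr6:124542310-124542609, minus strand: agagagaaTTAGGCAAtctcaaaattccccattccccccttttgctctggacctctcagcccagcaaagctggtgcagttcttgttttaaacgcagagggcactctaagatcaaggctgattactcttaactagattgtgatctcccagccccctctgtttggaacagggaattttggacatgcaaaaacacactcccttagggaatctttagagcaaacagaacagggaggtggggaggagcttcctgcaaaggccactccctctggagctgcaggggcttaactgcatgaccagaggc
The C3 window holds the C/EBP letters 45 bases before the start and TATAAA 14 bases after it, counted to the first base of each match. The C1ra window holds the C/EBP and STAT letters 16 and 32 bases after the start. The C1s1 window holds the C/EBP letters alone, 242 bases before the start, and the window of its other start and that of Cfd held none of the 6 motifs. A match is a description of letters and says nothing on binding.

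C3 and C4b, the components that are cleaved and deposited on surfaces, were found mostly in fibroblast-like cells. C3 stood at 850 CPM (824 to 876) in control Pi16 fibroblast-like cells and at 666 CPM (641 to 692) in control Gdf10 fibroblast-like cells. The SSPC-1-like cells of that library held C3 at 27.2 CPM (22.7 to 32.4), and SSPC-2-like cells at 6.62 CPM (4.61 to 9.21). The intervals of these 4 classes do not overlap each other. C4b stood at 390 CPM (373 to 408) in Pi16 and 480 CPM (459 to 502) in Gdf10 fibroblast-like cells, against 4.68 CPM (2.93 to 7.09) for SSPC-1-like and 3.78 CPM (2.31 to 5.84) for SSPC-2-like cells. The last pair overlaps. The order of the fibroblast-like classes thus differed between C3, highest in Pi16, and C4b, highest in Gdf10 among fibroblast-like cells.

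The Piezo1 fl/fl library had the same split between fibroblast-like and SSPC-2-like cells. C3 was at 896 CPM (874 to 920) in Pi16, 345 CPM (330 to 360) in Gdf10 fibroblast-like and 7.42 CPM (4.47 to 11.6) in the 392 SSPC-2-like cells. C4b was at 1224 CPM in Pi16, 382 CPM (367 to 398) in Gdf10 fibroblast-like and 21.5 CPM (16.2 to 28.0) for SSPC-2-like cells. In the Lgr5-led cells C3 was at 14.5 CPM and C4b at 23.8 CPM, near the SSPC-2-like values. Fibroblast-like cells held 89.4% of the C3 and 86.7% of the C4b UMIs of kept control cells, where they made up 36.3% of cells and 35.3% of all UMIs. Those of the Piezo1 fl/fl library held 94.6% and 88.7%, at 40.8% of cells and 44.8% of all UMIs.

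**Figure D1:**
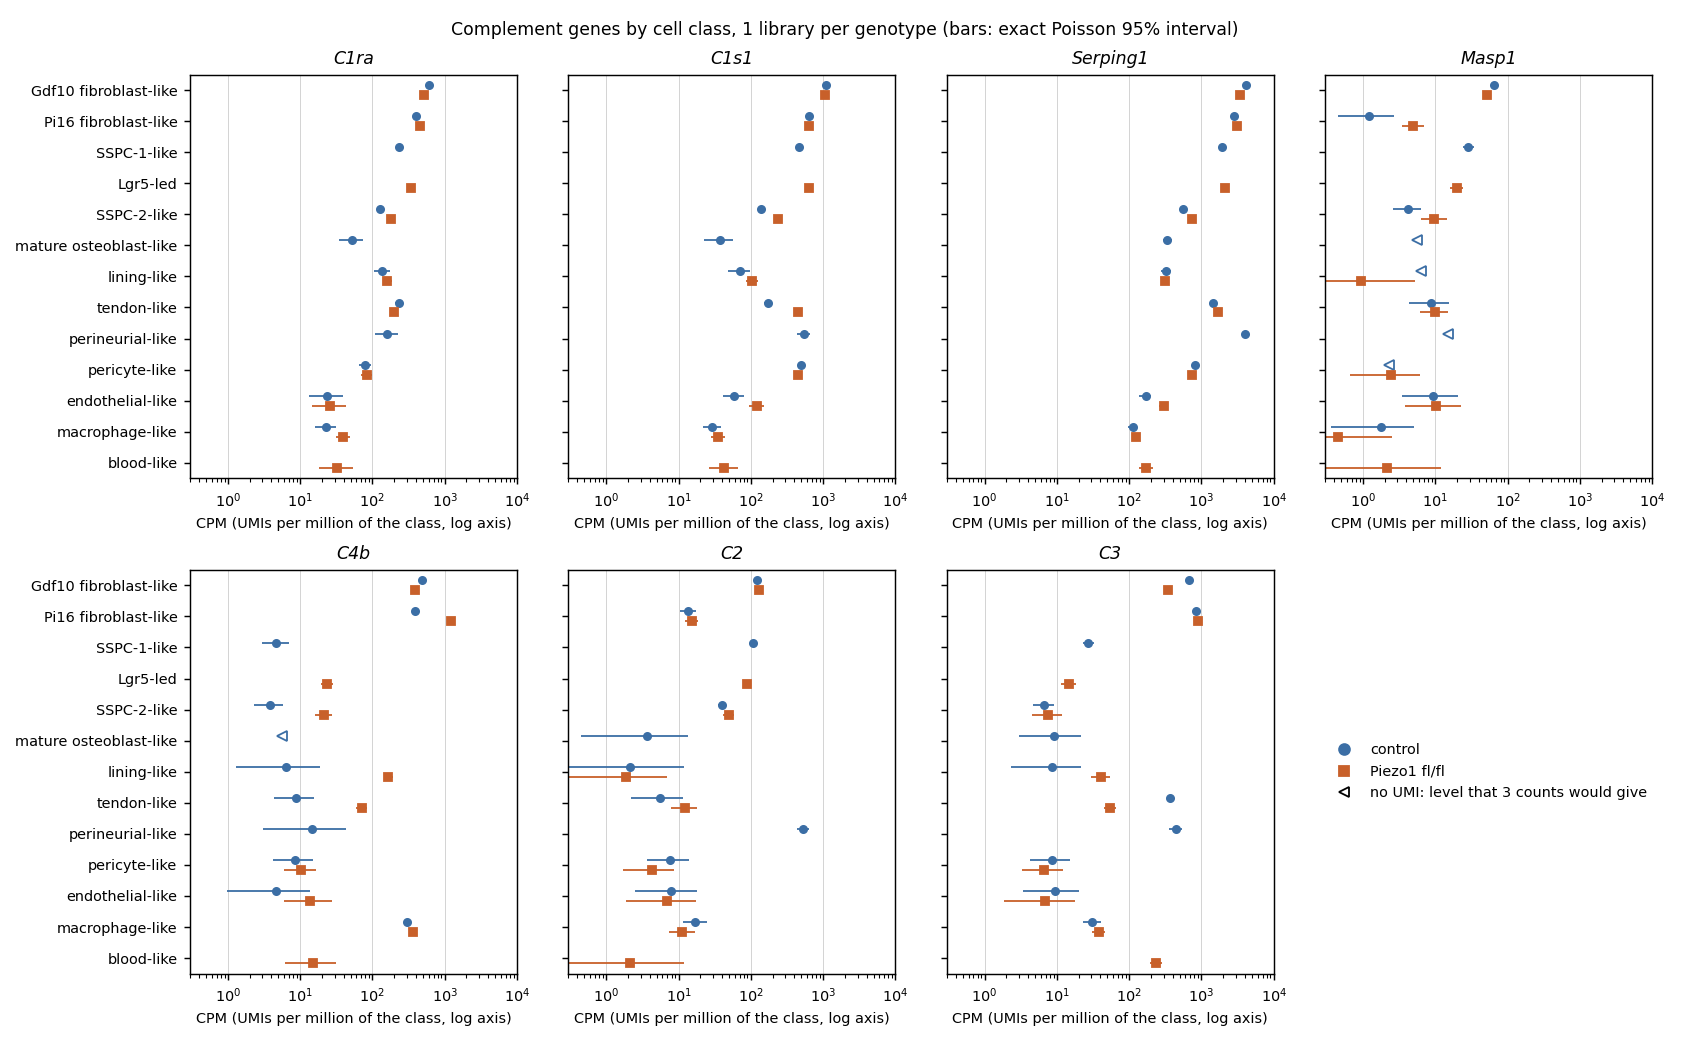
Level of 7 complement genes (CPM, log axis) in each cell class, with control and Piezo1 fl/fl values as separate points and bars for the 95% Poisson interval, some of which run past the left edge. Open triangles mark classes with no UMI, drawn at the level of 3 counts. C3 and C4b were over 100-fold higher in fibroblast-like than in SSPC-2-like cells of the control library, while C1s1, C1ra and Serping1 were above 100 CPM in both.

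Other classes differed between C3 and C4b. Control tendon-like cells held C3 at 368 CPM (336 to 403) and C4b at 8.70 CPM from 11 UMIs. Control macrophage-like cells showed the reverse, with C4b at 296 CPM (271 to 323) and C3 at 31.1 CPM. C3 was also at 439 CPM (353 to 541) in the 38 perineurial-like cells, where C4b was at 14.8 CPM. Pericyte-like and endothelial-like cells, where both genes were low, were taken as the background. A low expression of their own cannot be told apart from it. Pericyte-like cells held C3 at 8.44 CPM (control) and 6.69 CPM (Piezo1 fl/fl), and in endothelial-like cells at 9.36 and 6.89 CPM. The C3 level of control SSPC-2-like cells, 6.62 CPM, lay below both control values. That of Piezo1 fl/fl SSPC-2-like cells, 7.42 CPM (4.47 to 11.6), lay above both values of its library with an interval that holds them. C4b was at 8.44 and 10.3 CPM in pericyte-like and at 4.68 and 13.8 CPM in endothelial-like cells, so that the control SSPC levels of C4b were at or below background, and the interval of the Piezo1 fl/fl SSPC-2-like level reached into that of endothelial-like cells (5.95 to 27.2).

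C1s1 and C1ra, the proteases of the C1 complex, were more widely spread. C1s1 was at 1098 CPM in control Gdf10 fibroblast-like, 641 CPM (619 to 664) in Pi16 fibroblast-like, 461 CPM (441 to 480) for SSPC-1-like and 140 CPM (130 to 151) for SSPC-2-like cells. None of these intervals overlap. It reached 496 CPM (459 to 536) in control and 448 CPM in Piezo1 fl/fl pericyte-like cells, and it was at 29.3 and 35.6 CPM in macrophage-like cells. C1ra followed the same order in the 4 stromal classes of the control, from 603 CPM (579 to 627) in Gdf10 and 403 CPM (385 to 421) in Pi16 fibroblast-like to 234 CPM (220 to 248) for SSPC-1-like and 127 CPM (117 to 137) for SSPC-2-like cells. Unlike C1s1, C1ra was at 79.8 CPM in control and 83.4 CPM in Piezo1 fl/fl pericyte-like cells, below the SSPC-2-like level of each library. In the Piezo1 fl/fl library C1s1 was at 1060 CPM in Gdf10 fibroblast-like, 629 CPM in Pi16 fibroblast-like, 639 CPM in Lgr5-led and 241 CPM (223 to 261) for SSPC-2-like cells, and the Pi16 fibroblast-like and Lgr5-led values do not differ beyond their intervals. C1ra was at 511, 452, 342 and 178 CPM in the same classes.

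Serping1, the inhibitor of these proteases, had more UMIs than any other of the 9 genes in both libraries, although UMI counts of different genes need not follow their order of abundance. It was at 4146 CPM in control Gdf10 fibroblast-like, 2845 CPM in Pi16 fibroblast-like, 1902 CPM for SSPC-1-like and 556 CPM (536 to 577) for SSPC-2-like cells. The Piezo1 fl/fl values of Serping1 were 3375, 3138, 2137 and 732 CPM in Gdf10 fibroblast-like, Pi16 fibroblast-like, Lgr5-led and SSPC-2-like cells. The 38 perineurial-like cells of the control were at 4059 CPM. Macrophage-like cells were lowest among the classes named here, at 113 CPM (control) and 124 CPM (Piezo1 fl/fl).

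C2, the protease partner of C4, and Masp1, a protease of the lectin pathway, divided the fibroblast-like cells. C2 was at 13.5 CPM (10.5 to 17.2) in control Pi16 and 120 CPM (110 to 131) in control Gdf10 fibroblast-like cells, and at 15.1 CPM (12.3 to 18.4) and 129 CPM (120 to 138) in those of the Piezo1 fl/fl library. SSPC-1-like cells, at 106 CPM (97.0 to 116), were close to the Gdf10 value, and SSPC-2-like cells stood at 40.1 CPM (34.9 to 45.9) in the control and, from 128 UMIs, between 41.7 and 59.4 CPM in the other library. The highest C2 level was that of the perineurial-like cells, 528 CPM (433 to 638) from 107 UMIs. Masp1 was at 1.23 CPM (0.452 to 2.68) in Pi16 and 66.0 CPM (58.4 to 74.4) in Gdf10 fibroblast-like cells of the control, and at 4.99 CPM (3.44 to 7.01) and 51.8 CPM (46.3 to 57.8) in those of the Piezo1 fl/fl library. It was at 28.7 CPM (24.1 to 34.0) for SSPC-1-like and 4.16 CPM (2.61 to 6.30) for control SSPC-2-like cells.

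Cfb and Cfd, factor B and factor D of the alternative pathway, had UMIs in few cells. Cfb had 6 UMIs in 6 control cells and 1 UMI among Piezo1 fl/fl cells. Gm20547 overlaps Cfb on its strand and how shared reads were counted is not given, so this low count may not reflect the cells. Cfd, known as an adipocyte product, had 4 UMIs in 3 control cells. Among Piezo1 fl/fl cells it had 1016 UMIs in 34 cells, and 5 of these cells held 964 of them (94.9%), up to 364 in a single cell. All 5 were in the Chl1-led cluster, 319 Pi16 fibroblast-like cells named after their leading gene, and 4 of the 5 held UMIs of at least 2 of 6 adipocyte markers. Adipoq, one of these markers, had 256 UMIs in 13 cells of that cluster and 9 UMIs in the whole control library. The other 29 cells with Cfd held 52 UMIs. The Cfd values of fibroblast-like cells thus rest on a handful of cells that carry adipocyte genes.

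Fibroblast-like cells (Pi16 and Gdf10 together) were compared with SSPC-like cells, counting a gene as past the fold at a ratio of 2 or more with at least 10 UMIs in the pair. In the control library, where both SSPC classes were pooled, 5 of 7 genes with enough UMIs were at least 2-fold higher in fibroblast-like cells, against 12% of 13340 genes. C3 was 46.9-fold higher (40.2 to 55.1) and C4b 103-fold higher (75.8 to 143). C1s1 (2.92-fold), C1ra (2.79-fold) and Serping1 (2.89-fold) lay close together, with intervals from 2.64 to 3.05. Masp1 was just under the threshold at 1.97-fold (1.61 to 2.41), and C2 was lower, at 0.878 (0.784 to 0.982). The median log2 ratio of the 7 genes was 1.53, beside 0.15 for all genes.

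The size of that difference depended on the SSPC class. Over SSPC-2-like cells 6 of 7 genes were at least 2-fold higher, against a background of 19%, with C3 at 116-fold (83.1 to 166), C4b at 114-fold (73.7 to 187), Masp1 at 7.43-fold, Serping1 at 6.19-fold, C1s1 at 6.06-fold and C1ra at 3.91-fold. Over SSPC-1-like cells 3 of 7 were, against 11.5%, namely C3 (28.1-fold), C4b (92.2-fold) and C1ra (2.11-fold), while C2 was at 0.589 (0.521 to 0.665). SSPC-1-like cells themselves were at least 2-fold above SSPC-2-like cells in 5 of 7 genes, against 16.6%: Masp1 6.90-fold (4.38 to 11.4), C3 4.11-fold (2.81 to 6.16), Serping1 3.42-fold, C1s1 3.28-fold and C2 2.65-fold. C4b, at 1.24 (0.644 to 2.39), was not distinguishable between the SSPC classes at this depth.

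In the Piezo1 fl/fl library fibroblast-like cells were at least 2-fold above SSPC-2-like cells in 7 of 8 genes, or 6 of 7 without Cfd, against 18.6% of genes. C3 was 84.8-fold (54.3 to 141), C4b 38.0-fold (29.2 to 50.5), Serping1 4.44-fold, C1s1 3.47-fold, Masp1 2.83-fold (1.89 to 4.43) and C1ra 2.70-fold higher. Cfd, the seventh, had 1002 UMIs in fibroblast-like cells and 1 in SSPC-2-like cells, a ratio of 200 (35.9 to 7919), and it had enough UMIs for a ratio only through the fibroblast-like cells. C2, at 1.40 (1.17 to 1.70), was again the gene with the smallest difference. The median log2 ratio of the 8 genes, Cfd included, was 1.97, beside 0.22 for all genes. Without Cfd the middle value of the 7 genes was that of C1s1, 1.80. Without the Chl1-led cluster C3 was 49.8-fold and C4b 17.6-fold higher, with the count still 7 of 8, or 6 of 7 without Cfd, against 18.9%. When the Lgr5-led cells were counted as SSPC-1-like and pooled with the SSPC-2-like cells, the count fell to 3, namely C3, C4b and Cfd, against 11.2%.

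**Figure D2:**
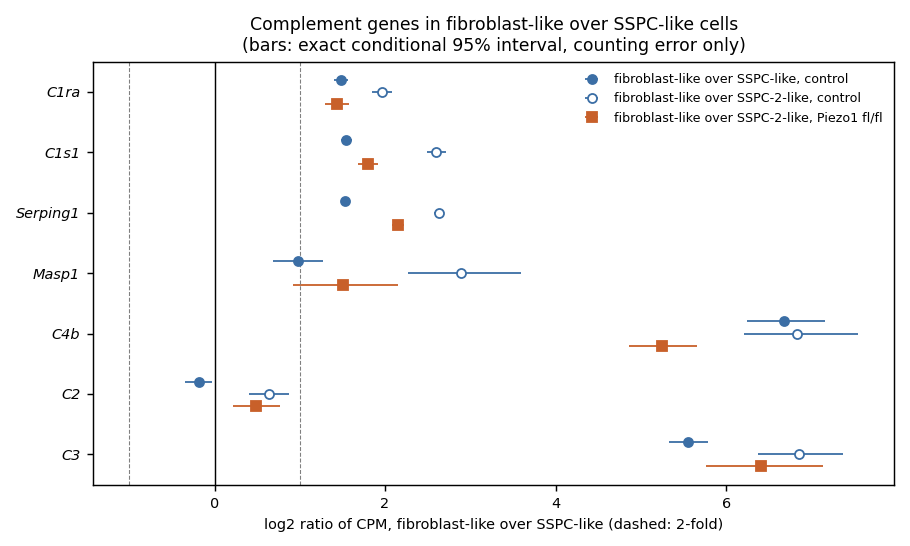
Log2 ratio of each complement gene in fibroblast-like over SSPC cells, with 95% intervals for counting error. Filled circles are control fibroblast-like over all SSPC-like cells, open circles control over SSPC-2-like cells, squares Piezo1 fl/fl over SSPC-2-like cells, and dashed lines mark 2-fold. C3 and C4b stand apart from C1s1, C1ra and Serping1 in each, and C2 is nearest to 0.

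Between the fibroblast-like classes, 2 of 7 genes were at least 2-fold higher in Gdf10 than in Pi16 cells of the control, against 8.81% of genes, and none was 2-fold lower (5.24% of genes). C2 was 8.90-fold (6.87 to 11.7) and Masp1 53.7-fold (24.3 to 148, from 272 against 6 UMIs) higher. C1s1 (1.71), C1ra (1.5), Serping1 (1.46) and C4b (1.23) were also above 1, and C3 below it (0.784, 0.747 to 0.823). Among Piezo1 fl/fl cells the same genes, C2 (8.53-fold, 6.92 to 10.6) and Masp1 (10.4-fold, 7.24 to 15.3), were past 2-fold higher, against 7.88%. There C3 (0.385), C4b (0.312) and Cfd were past 2-fold lower, against 4.88%. Without the Chl1-led cluster C3 was at 0.853 (0.801 to 0.909) and C4b at 1.03 (0.968 to 1.10), values near those of the control, and C1s1 (2.14) joined C2 and Masp1 past 2-fold, against 9.84%.

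The fibroblast-like cells were not uniform in these genes. At a clustering resolution of 0.8, the clusters most of whose cells were fibroblast-like numbered 5 in each library. These sub-clusters held 1640 control cells, all 1604 fibroblast-like cells among them, and 1897 Piezo1 fl/fl cells, all fibroblast-like, with 179 fibroblast-like cells of that library in other clusters. They are named after their leading genes, and 4 pairs were each other's closest match between libraries (Pearson r of the genes' levels relative to the other sub-clusters 0.564 to 0.834 over 4144 genes, a description across genes within this pair of libraries). In the control, C3 was at 1472 CPM in Cxcl13-led and 1362 CPM in Gap43-led cells, 355 CPM in Col6a5-led, 268 CPM in Hsd11b1-led and 29.97 CPM in Sema3e-led cells. C4b was at 1192, 356, 307, 149 and 4.61 CPM in the same order. Both genes thus varied widely among cells that share the fibroblast-like name, and the Sema3e-led cells, which are Pi16 fibroblast-like, were near the SSPC-1-like level. C3 had a UMI in 86.7% and C4b in 69.9% of the 279 Cxcl13-led cells. C2 was also highest there among control sub-clusters, at 205 CPM, and lowest in Sema3e-led cells at 5.76 CPM.

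In the Piezo1 fl/fl library the Chl1-led cells (323 at this resolution) had the highest C3 (2009 CPM) and C4b (3099 CPM), with a C3 UMI in 89.5% and a C4b UMI in 96.9% of cells. Their Pi16 fibroblast markers summed to 10179 CPM and their Gdf10 fibroblast markers to 2777 CPM. These sums were 10498 and 4938 CPM in Ccl11-led and 17723 and 566 CPM in Dact2-led cells, so the Pi16 name of the Chl1-led cells is uncertain. Among control sub-clusters the Chl1-led cells were most like Cxcl13-led cells (r 0.451), with r -0.116 to Gap43-led cells. Dact2-led cells held C3 at 863 and C4b at 539 CPM, Ccl11-led cells at 439 and 523 CPM, Hhip-led cells at 148 and 139 CPM and Slurp1-led cells at 141 and 275 CPM. The Hhip-led cells had the highest C2 of all sub-clusters, 427 CPM with a UMI in 78.9% of 228 cells. The Chl1-led cells of that library and the Cxcl13-led cells of the control also had the highest summed level of 11 genes known to rise during tissue dissociation (Fos, Jun, Egr1 and others), 28381 and 28565 CPM. The other sub-clusters ranged from 4276 CPM in Slurp1-led to 18105 CPM in Gap43-led cells. NF-kB target genes summed to 3388 CPM in the Chl1-led, 3426 CPM in the Cxcl13-led and 3839 CPM in the Gap43-led cells, and to between 675 and 2323 CPM in the others. The part of these levels in the C3 and C4b values was not tested.

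**Figure D3:**
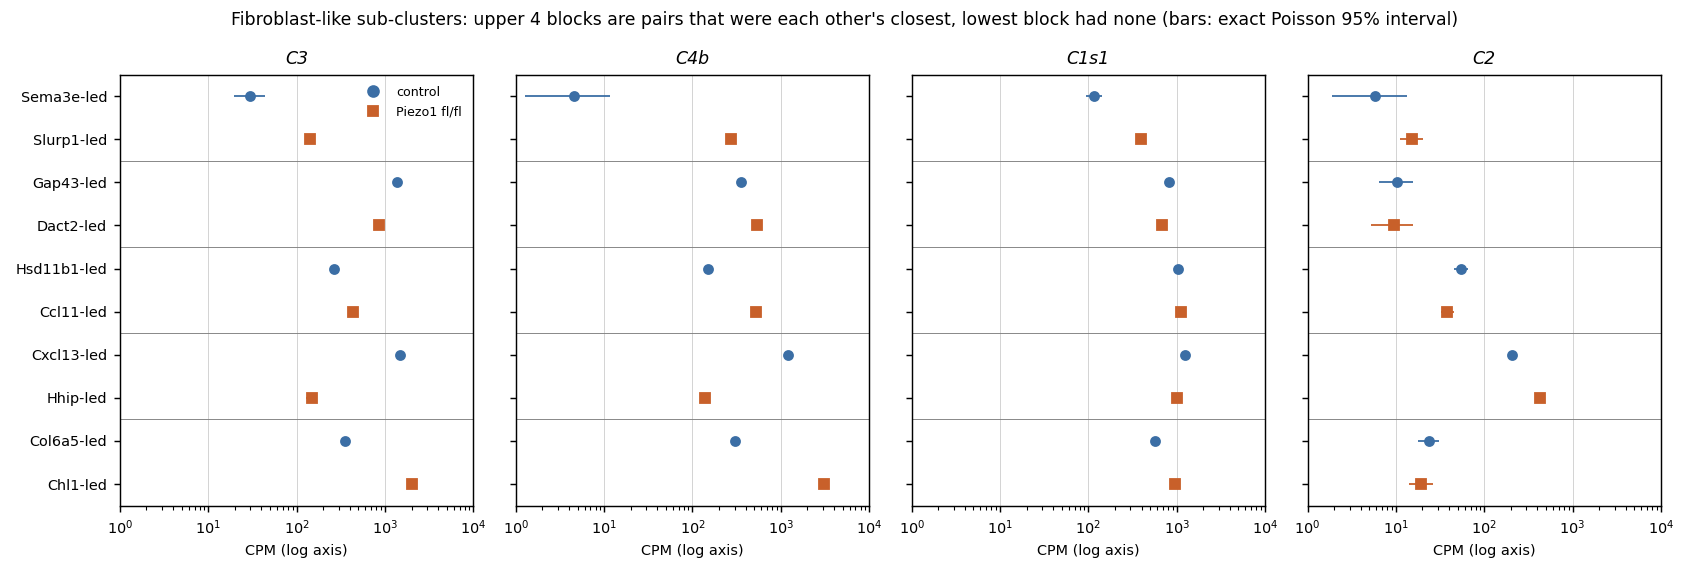
Levels of C3, C4b, C1s1 and C2 (CPM, log axis) in the 10 sub-clusters at resolution 0.8 most of whose cells were fibroblast-like, with 95% Poisson intervals. The upper 4 blocks are the pairs of control and Piezo1 fl/fl sub-clusters that were each other's closest match, and the lowest block holds the Col6a5-led (control) and Chl1-led (Piezo1 fl/fl) cells, which had none. C3 runs from 29.97 CPM in Sema3e-led to 2009 CPM in Chl1-led cells.

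Within a cell, C4b was found more often where C3 was found. With every fibroblast-like cell thinned to 2500 UMIs, C4b had a UMI in 48.5% (44.7 to 52.4) of control cells with C3 and in 9.47% (7.52 to 11.7) of those without. The Piezo1 fl/fl shares were 69.8% (66.4 to 73.0) and 18.9% (16.6 to 21.3). The split was present within each fibroblast-like class, at 53.0% against 10.5% in control Gdf10 cells and 44.8% against 8.54% in control Pi16 cells. In control Pi16 cells the split was not particular to C4b, with C1s1 in 86.5% of cells with C3 against 43.2% without, and Serping1 in 98.1% against 81.7%. In control Gdf10 cells C1s1 was in 92.1% and 90.1%. C2 did not share the split, with a UMI in 9.58% of control cells with C3 and 7.45% without, and in 8.30% and 12.3% of Piezo1 fl/fl cells. The cells of a library share its preparation, so these shares describe the libraries.

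The same depth was used to compare how many cells of a class held a gene. C3 had a UMI in 47.4% of control Pi16 and 45.3% of control Gdf10 fibroblast-like cells (54.7% and 52.4% before thinning). The shares were 2.19% for SSPC-1-like and 2.39% for SSPC-2-like cells (4.84% and 4.32%), beside 0.806% of pericyte-like cells and 0 of 118 endothelial-like cells, where the exact upper bound is 3.08%. The Piezo1 fl/fl shares of C3 were 51.4% in Pi16 and 29.6% in Gdf10 fibroblast-like and 1.63% for SSPC-2-like cells (59.6%, 38.2% and 3.57%). C4b was in 29.4% of control Gdf10 and 25.7% of control Pi16 fibroblast-like cells, in 26.6% of macrophage-like cells and in 0.844% of SSPC-2-like cells (35.5%, 32.2%, 31.1% and 2.43%). C1s1 was in 76.4% of control fibroblast-like and 41.9% of SSPC-like cells (85.8% and 60.7%), and in 5.65% of macrophage-like cells. C3 and C4b were thus found in at most 51.4% of the cells of a fibroblast-like class at this depth, while Serping1 was found in 93.9% of them in each library. Thinning left out 144 control and 172 Piezo1 fl/fl fibroblast-like cells with fewer UMIs.

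**Figure D4:**
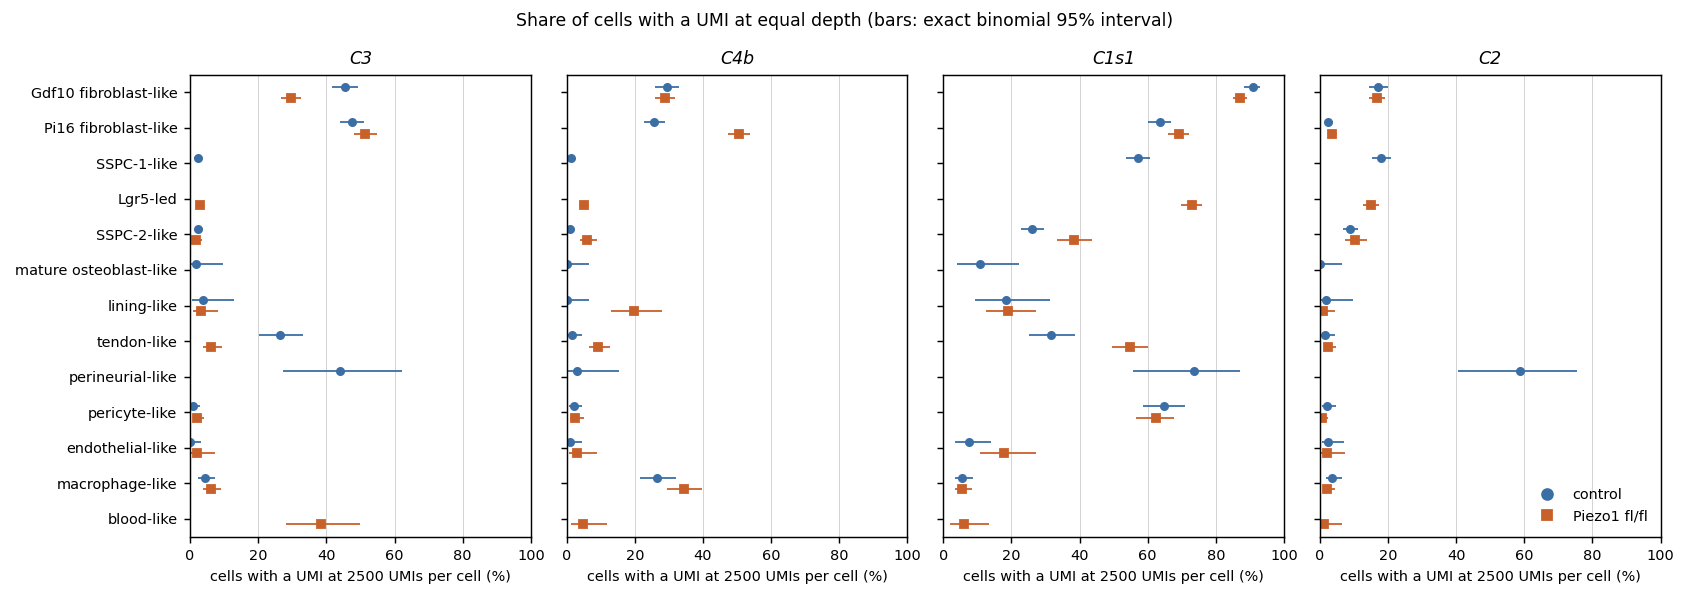
Percent of cells of each class with at least 1 UMI of C3, C4b, C1s1 and C2 after thinning every cell to 2500 UMIs, for the control and Piezo1 fl/fl libraries, with exact 95% binomial intervals. C3 and C4b were at or below 5.96% in SSPC-1-like, SSPC-2-like and Lgr5-led cells, and C1s1 between 26.2% and 72.9% in them.

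Between genotypes, 1 of 8 genes was past 2-fold in fibroblast-like cells as a whole, against 7.77% of genes in either direction. That gene was Cfd, with 1002 UMIs in the Piezo1 fl/fl and 1 in the control library (ratio 704, 126 to 27821), described above as resting on 5 cells. C4b was 1.89-fold higher (1.82 to 1.96) in the Piezo1 fl/fl library and C3 was at 0.822 (0.796 to 0.849). C1s1 (0.985), C1ra (0.972), Serping1 (0.945), Masp1 (0.894) and C2 (1.12) stood close to 1. Without the Chl1-led cluster C4b turned to 0.874 (0.836 to 0.913) and C3 to 0.483 (0.464 to 0.502). Then C3 and Cfd (16.8, 2.69 to 697, from 20 against 1 UMI) were past 2-fold, against 7.15%. The direction of the C4b ratio in fibroblast-like cells as a whole thus changed with that cluster. Cells were left out of the Piezo1 fl/fl library alone, and they had its highest C3 and C4b among the fibroblast-like sub-clusters. A fall of both ratios was therefore fixed in advance. The control kept its Cxcl13-led cells, the control sub-cluster most like the Chl1-led cells.

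The 2 fibroblast-like classes differed in this, with the Chl1-led cluster counted as Pi16 fibroblast-like. In Pi16 fibroblast-like cells 3 of 8 genes were past 2-fold, against 8.25%: C4b at 3.13 (2.98 to 3.30), Masp1 at 4.06 (1.68 to 11.8, from 33 against 6 UMIs) and Cfd, while C3 was at 1.05 (1.01 to 1.10). Without the Chl1-led cluster C4b was at 0.949 (0.888 to 1.01), Masp1 at 2.17 (0.752 to 7.03) and C3 at 0.475 (0.450 to 0.502). C3, Cfd and Masp1 were then the 3 of 8 past 2-fold, against 8.45%, and the interval of Masp1 holds 1. In both counts Cfd, with 1 UMI in control Pi16 fibroblast-like cells, had enough UMIs for a ratio only through the Piezo1 fl/fl library. In Gdf10 fibroblast-like cells 0 of 7 genes were past 2-fold, against 7.38%. The lowest ratios there were those of C3, 0.517 (0.489 to 0.548), Masp1, 0.784 (0.665 to 0.925), and C4b, 0.795 (0.749 to 0.844). No p-value can be made from 1 library per genotype.

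The matched sub-clusters gave no single direction for C3 and C4b. From control Hsd11b1-led to Piezo1 fl/fl Ccl11-led cells C3 was at 1.64 and C4b at 3.52, and 1 of 7 genes was past 2-fold (8.91% of genes). From Gap43-led to Dact2-led cells C3 was at 0.634 and C4b at 1.51, with 0 of 6 past 2-fold (7.52%). From Cxcl13-led to Hhip-led cells C3 was at 0.101 (0.0873 to 0.115) and C4b at 0.116 (0.101 to 0.134) while C2 was at 2.08 (1.83 to 2.38), and these 3 of 7 were past 2-fold (14.1%). In this last pair 7 of 10 NF-kB target genes and 6 of 11 dissociation genes were also past 2-fold lower, and their part in the result was not tested. From Sema3e-led to Slurp1-led cells all 6 genes with UMIs in both were past 2-fold higher (15.5% in either direction), among them C3 at 4.70 (3.16 to 7.29) and C4b at 59.7 (23.2 to 220, from 810 against 4 UMIs). Cfd had 12 against 0 UMIs and is not read here. These pairs are the closest matches and need not be the same cell state.

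**Figure D5:**
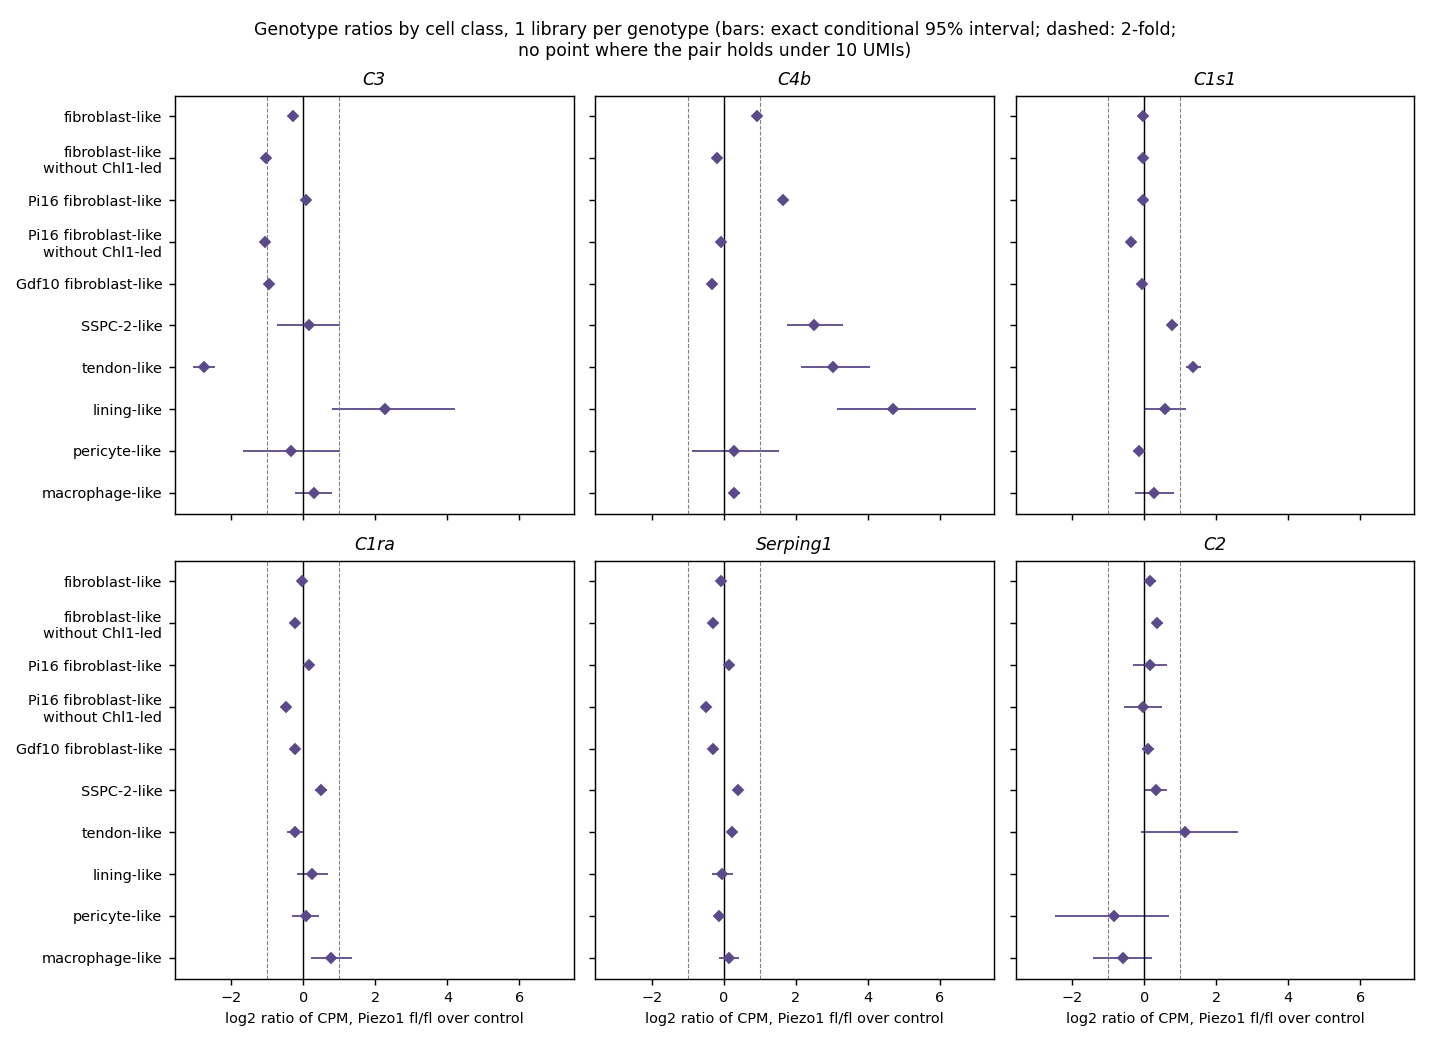
Log2 ratio of 6 complement genes in Piezo1 fl/fl over control cells of each class, with 95% intervals for counting error and dashed lines at 2-fold. Fibroblast-like and Pi16 fibroblast-like cells are shown with and without the Chl1-led cluster, which was left out of the Piezo1 fl/fl side alone. C4b is above 0 in SSPC-2-like, tendon-like and lining-like cells and falls from a ratio of 3.13 to 0.949 in Pi16 fibroblast-like cells without the Chl1-led cluster.

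Outside the fibroblasts C4b was higher in Piezo1 fl/fl SSPC-2-like, tendon-like and lining-like cells and lower in chondrocyte-like cells. In SSPC-2-like cells it went from 20 UMIs (3.78 CPM) to 55 UMIs (21.5 CPM), a ratio of 5.68 (3.35 to 10.0), and with Masp1 at 2.35 (1.27 to 4.37) made 2 of 7 genes past 2-fold, against 9.55%. C1s1 (1.72), C1ra (1.41) and Serping1 (1.32) were higher with intervals above 1, and C3 (1.12, 0.606 to 2.01) was not distinguishable. In tendon-like cells 4 of 7 genes were past 2-fold, against 13.7%: C4b at 8.17 (4.44 to 16.7), C1s1 at 2.58 (2.22 to 3.00) and C2 at 2.21 (0.934 to 6.03) were higher, and C3 was at 0.148 (0.120 to 0.182). In lining-like cells, marked by Prg4 and Htra4, 2 of 5 were, against 16.7%, with C4b at 26.1 (8.79 to 128, from 175 against 3 UMIs) and C3 at 4.81 (1.75 to 18.5, from 43 against 4 UMIs). Endothelial-like cells had 2 of 6 past 2-fold, against 12.8%, namely C1s1 at 2.09 (1.38 to 3.20) and C4b at 2.95 (0.707 to 17.2, from 8 against 3 UMIs). Pericyte-like and macrophage-like cells had 0 of 6 each, against 7.77% and 9.13%, with C4b at 1.23 in both. The 17 control and 27 Piezo1 fl/fl chondrocyte-like cells had 2 of 3 past 2-fold, against 30.8%, both lower, with C4b at 0.143 (0.0154 to 0.657, from 2 against 11 UMIs) and C1ra at 0.282 (0.0794 to 0.827, from 5 against 14 UMIs).

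Over all kept cells C4b was at 2.35 (2.27 to 2.43), and the part of free C4b RNA in the small C4b levels outside fibroblast-like cells was not tested. At equal depth C4b was in 5.96% (3.77 to 8.89) of Piezo1 fl/fl SSPC-2-like cells, beside 2.60% (1.13 to 5.05) of pericyte-like and 3.16% (0.656 to 8.95) of endothelial-like cells (11%, 4.12% and 4.93% before thinning). At equal depth the SSPC-2-like interval overlaps both. Before thinning it (8.05 to 14.5) lay above that of pericyte-like cells (2.32 to 6.71) and overlapped that of endothelial-like cells (2.00 to 9.89). The SSPC-2-like cells were also deeper, with a median of 5400 UMIs beside 3933 in pericyte-like cells. Whether their higher C4b lies above background is thus not settled by these shares. In tendon-like cells the share was 9.30% (6.49 to 12.8), above the interval of pericyte-like cells and overlapping that of endothelial-like cells. In lining-like cells it was 19.8% (13.1 to 28.1), above both, with 11.4% and 46.8% before thinning.

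The genes whose levels over classes were most like each member were ranked by Pearson's r of log2(CPM + 1) over 10 control and 9 Piezo1 fl/fl classes, among 7060 genes, taking the lower r of the libraries. The markers used for naming and the mitochondrial, ribosomal protein and hemoglobin genes were left out of the ranking. The classes of a library share its preparation and depth, and the values are a description. C3 was most like Fbn1 (0.877 control, 0.886 Piezo1 fl/fl), Col14a1 (0.895 and 0.873) and Prdm8 (0.863 and 0.916). C4b was most like Zfp385a (0.881 and 0.901), Cxcl13 (0.952 and 0.838) and Dapk1 (0.833 and 0.853). C1s1 and Serping1 were most like each other (0.926 and 0.966). C1ra was nearest to Podn (0.942 and 0.948), C2 to Masp1 (0.789 and 0.784) and Masp1 to Fmo1 (0.896 and 0.908). C3 and C4b were at 0.721 and 0.701 with each other. Cfb and Cfd had too few UMIs to rank.

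Around the members, 45 of 46 other complement genes were listed, and 20 (control) and 21 (Piezo1 fl/fl) had at least 100 UMIs in a class. By the same rule 25 had enough UMIs in control fibroblast-like and SSPC-like cells. Of these, 7 were at least 2-fold higher and 2 lower in fibroblast-like cells (12% and 11.6% of all genes). In the Piezo1 fl/fl library 11 of 27 were higher and 3 lower than in SSPC-2-like cells (18.6% and 9.02%). Of the 11, Colec10, Colec11, C6, C7 and Vtn were at 0 CPM in SSPC-2-like cells. Fcna, C1rb, C1s2 and C3ar1 were at 0.391 CPM there. These genes had enough UMIs for a ratio only through the fibroblast-like cells (12807736 UMIs in all, beside 2560119 in SSPC-2-like cells). Fcna and C3ar1 were low in fibroblast-like cells too (1.41 and 1.17 CPM). The recognition subunits of C1, which the proteases C1r and C1s bind, were in macrophage-like cells, at 1457 CPM for C1qa, 4156 CPM for C1qb and 4700 CPM for C1qc in the control. The receptors C3ar1 (939 CPM) and C5ar1 (1053 CPM), Vsig4 (466 CPM), which binds C3 fragments, and Cfp (349 CPM), which stabilises the alternative enzyme, were highest there too. C7, a component of the lytic pore, was at 189 CPM in control Gdf10 and 73.2 CPM in control Pi16 fibroblast-like cells against 0.568 CPM in SSPC-2-like cells. Cd55, a membrane inhibitor of the C3-cleaving enzyme, was at 1013 CPM in Pi16 and 208 CPM in Gdf10 fibroblast-like cells and 24.3 CPM in SSPC-like cells. Between genotypes 2 of 28 of these genes were past 2-fold higher in fibroblast-like cells, among them Fcna, against 3.21% of all genes. Past 2-fold lower were 4 (Colec10, C7, Cfp and Cd93), against 4.56%. In control and Piezo1 fl/fl fibroblast-like cells C7 was at 126 and 58.2 CPM and Colec10 at 17.2 and 3.12 CPM. Fcna (0.222 and 1.41 CPM), Cfp (4.11 and 1.95 CPM) and Cd93 (3.00 and 0.859 CPM) were low there. Fcna and Cfp were highest in macrophage-like and Cd93 in endothelial-like cells of both libraries.

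Genes of responses that are known to induce complement were counted beside the members. In control fibroblast-like over SSPC-like cells 6 of 13 interferon response genes were at least 2-fold higher and 1 lower, and 7 of 11 NF-kB targets were higher and 1 lower, against 12% and 11.6% of all genes. Of the dissociation genes 1 of 11 was higher. Over control SSPC-2-like cells alone 9 of 13 interferon response genes, 8 of 10 NF-kB targets and 3 of 11 dissociation genes were higher, against 19% of all genes. In Piezo1 fl/fl fibroblast-like over SSPC-2-like cells the counts were 6 of 13, 5 of 10 and 4 of 11, against 18.6%. In both of these comparisons 0 genes of each list were past 2-fold lower. In SSPC-2-like cells 5 of 10 NF-kB targets were past 2-fold higher in the Piezo1 fl/fl than in the control library (4.94% of all genes). The part of these responses in the complement levels was not tested.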

How the data were processed

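The authors deposited raw UMI counts per gene and barcode, 1 matrix per library, without normalization. The submitters' processing notes name fastp, UMI-tools, STAR and Seurat 4.0.3, and the genome build is not given in the sources used here. The control matrix held 28030299 UMIs in 6118 barcodes (median 3633.5 per barcode) and the Piezo1 fl/fl matrix 32337308 UMIs in 7469 barcodes (median 3327). Barcodes were kept if they had from 1000 to 5000 genes and less than 25% of UMIs from mitochondrial genes, and Scrublet in scanpy 1.11.5 (rate 0.05, seed 0) called 46 (0.829%) and 67 (0.988%) doublets, which were removed. Each library was clustered alone in Seurat 5.3.0 (R 4.3.3) with 2000 vst features, 30 principal components, a graph on 20 and resolution 0.4. All complement genes and Gm20547 were left out of the features, which left 1976 and 1972.

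Clusters were named from fixed markers (at least 3, each in at least 10% of cells and at 2 times the median of other clusters). The naming thresholds and the name of each sub-cluster at resolution 0.8, taken from the class most of its cells had, were set after the clusters were seen. UMIs were summed per class in Python 3.11.15 (numpy 2.4.6, scipy 1.17.1, pandas 2.3.3), with exact Poisson, conditional and binomial intervals at 95%. Ratios need at least 10 UMIs in the pair, a gene is past the fold at 2 or 0.5, and a count of 0 is read as at most 3 counts. The ratio script was tested on simulated data. Named genes are all 9 members, genes of the other complement list with at least 100 UMIs in a class, and the 3 genes most like each member. The members and lists were chosen with earlier results of these data known. Genotypes were to be compared in all SSPC-like cells, but no Piezo1 fl/fl cluster was named SSPC-1-like, so SSPC-2-like cells were used. In all, 12 planned and 5 added alternatives were run.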

Additional observations from a re-analysis of the deposited data

Results flagged for a closer look

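Several ratios pointed in opposite directions in the 2 fibroblast-like classes or the 2 libraries. With 1 library per genotype the differences were not tested. The Chl1-led cluster was counted as Pi16 fibroblast-like, a name that its Pi16 and Gdf10 markers leave uncertain. C4b was higher in Gdf10 than in Pi16 fibroblast-like cells of the control (log2 ratio 0.30) and lower in those of the Piezo1 fl/fl library (log2 ratio -1.68), a difference of 1.98. The Piezo1 fl/fl over control log2 ratio of C4b was 1.65 in Pi16 and -0.33 in Gdf10 fibroblast-like cells, by arithmetic the same difference of 1.98. For C3 these were 0.08 and -0.95 (difference 1.03), for C1ra 0.17 and -0.24 (0.40), for Serping1 0.14 and -0.30 (0.44) and for Masp1 2.02 and -0.35 (2.37), the last from 6 UMIs in control Pi16 cells. Leaving out the Chl1-led cluster took cells from the Piezo1 fl/fl library alone, those with its highest C3 and C4b. The Pi16 ratio of C4b was then 0.949 and that of C3 0.475, beside 0.795 and 0.517 in Gdf10 fibroblast-like cells. C1ra (0.716) and Serping1 (0.707) in Pi16 cells then also lay below 1, beside 0.848 and 0.814 in Gdf10 cells, while Masp1 stayed above 1 (2.17, 0.752 to 7.03).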

How the results depend on the processing

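The count of complement genes at least 2-fold higher in control fibroblast-like than SSPC-like cells stayed between 5 and 6 under 14 alternatives. These include SSPC-2-like cells alone but not SSPC-1-like cells alone, over which the count was 3 of 7. In the Piezo1 fl/fl library it was 7 and ranged from 3 to 7 under 15, with 4 when each cell was assigned by its own markers (an assignment that matched the cluster names for 72.7% of control and 53.5% of Piezo1 fl/fl cells) and 3 when the Lgr5-led cluster was counted as SSPC-1-like. Between genotypes in SSPC-2-like cells 2 genes were past 2-fold, 1 when the Lgr5-led cluster was counted as SSPC-1-like and between 2 and 3 under 14 others, C1s1 being the third where it was 3. In fibroblast-like cells the count was 1, and 2 at resolution 0.8, 2 at 1.5-fold and 2 without the Chl1-led cluster. Of 403 log2 ratios of single genes, 293 stayed within their interval and the other 110 moved past it. In all 23 changed sign, 1 of them from a ratio past 2-fold: Masp1 between genotypes went from 1.23 to -0.69 when all clusters named SSPC were pooled. Under that pooling C3 was at -1.14, C1s1 at -0.27, C2 at -0.51 and Serping1 at -0.70, from 0.16, 0.78, 0.32 and 0.40. The pooling added SSPC-1-like cells to the control alone, since no Piezo1 fl/fl cluster had that name, so unlike classes were compared. Without the Chl1-led cluster, left out of the Piezo1 fl/fl library alone, C4b in fibroblast-like cells was at -0.19, from 0.92. These shifts are thus not read as genotype differences. The cause of the other sign changes was not tested. C3 in fibroblast-like cells ranged from 730 to 824 CPM in the control and from 611 to 668 CPM in the Piezo1 fl/fl library over 6 alternatives.

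Clusters of an alternative took the class that most of their cells had in the main clustering. The alternatives that change a class by the Chl1-led, Lgr5-led or SSPC clusters, or leave out barcodes found in both libraries, were chosen after seeing the data. C4a was not analysed here and could not be added to C4b. No paired analysis was possible because each genotype is 1 library. Depth limits C3 and C4b outside fibroblast-like and macrophage-like cells, where many levels rest on under 60 UMIs, and the intervals hold no variation between animals. Barcodes that were left out held 4.85% to 6.51% of the UMIs of the 7 well-measured genes in the control, beside 9.07% of all UMIs.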

Other observations

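C4b, the gene for the component that C1s and MASP2 cleave, split the macrophage-like cells. Clustered again on their own, the control macrophage-like cells gave 226 cells led by Il1b and Itgax with C4b at 28.6 CPM (18.6 to 41.8) and 170 cells led by Vsig4 with C4b at 603 CPM (551 to 660) and a C4b UMI in 62.9% of cells. Lyve1, a marker of resident tissue macrophages, was at 146 and 4137 CPM in these. Among Piezo1 fl/fl cells, where macrophage-like and blood-like cells were clustered again together, the Mmp12-led group, with Lyve1 at 30.3 CPM, had C4b at 40.1 CPM, and the 3 groups with high Lyve1 (2846 to 4794 CPM) had C4b at 238, 476 and 823 CPM. Within these 3 groups C4b did not rank with Lyve1, at 476 CPM beside the highest and 823 CPM beside the lowest Lyve1. The remaining group, 96 cells led by Il1f9 and Ltf, had Lyve1 at 303 CPM and C4b at 163 CPM (130 to 201). C4b was among the 10 leading genes of the control Vsig4-led cells, so its difference between sub-clusters is a description.

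C3 in the Piezo1 fl/fl library was also at 238 CPM (195 to 287, 110 UMIs) in the 88 blood-like cells, where C4b was at 15.1 CPM. Fcnb, a ficolin that starts the lectin pathway, was at 532 CPM in the blood-like cells. It had 1 UMI in the control library, where no cluster was named blood-like. Clu, clusterin, a fluid inhibitor of the lytic pore, was highest in chondrocyte-like cells, at 1405 CPM in the control and 1976 CPM in the Piezo1 fl/fl library, where C3 had 1 and 0 UMIs. Endothelial-like cells held Cd93 at 1157 and 1151 CPM and Cd59a, a membrane inhibitor of the lytic pore, at 239 and 183 CPM.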
